A study of Mus musculus with 7 samples.

Results

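The genes described here encode subunits of 2 calmodulin-activated enzymes of the heart muscle cell, CaM kinase II and calcineurin, or related calcium signalling proteins. They were the 10 rows of the count table with the symbols Camk2b, Camk2d and Camk2g (CaM kinase II isoforms), Ppp3ca, Ppp3cb and Ppp3r1 (calcineurin subunits), Rcan1 and Rcan2 (regulators of calcineurin), Nfatc3 (a transcription factor that calcineurin acts on) and S100a1 (a calcium-binding protein), out of 23337 rows. All 10 were found and all 10 passed the filter on low counts, which kept 12561 genes. Messenger RNA was sequenced from mouse cardiomyocytes at postnatal day 6 (P6, 4 libraries, P6a to P6d) and postnatal day 30 (P30, 3 libraries, P30a to P30c). All mice carried a Rosa26 allele, given as Rosa-Tom or Rosa-Cas9 without saying which for any library, and all had received the Cre virus AAV9-cTNT-Cre on day 1. Cre in this virus is driven by the cardiac troponin T promoter, and the cells were isolated by collagenase perfusion and flow sorting. There was no group without virus, and time since the virus rises with age in this design, so age and time since the virus cannot be told apart. The treatment text gives collection on day 14, whereas the titles, the ages and the design text give day 6 or day 30, which were used.

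As background, calcium that enters the cytosol in each beat binds calmodulin, and calcium-loaded calmodulin switches on both enzymes. CaM kinase II is a ring of subunits encoded by several genes. It phosphorylates the calcium channels and pumps of the cell and the class II histone deacetylases. Calcineurin is a phosphatase made of a catalytic A subunit (Ppp3ca, Ppp3cb or Ppp3cc) and a regulatory B subunit (Ppp3r1), and it removes phosphates from NFAT factors, which then enter the nucleus. The RCAN proteins bind calcineurin and restrain it. In the heart, both enzymes are known for their part in hypertrophic growth.

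Between P6 and P30 the transcripts of the calcineurin regulators Rcan1 and Rcan2 rose, and those of Nfatc3, Camk2g and S100a1 rose too. Transcripts of Camk2d and of the calcineurin catalytic subunit Ppp3ca fell by less. Rcan1 rose 2.16-fold and Rcan2 1.82-fold, Nfatc3 1.72-fold, Camk2g 1.61-fold and S100a1 1.496-fold, while Camk2d and Ppp3ca went to 0.794 and 0.817 of their P6 level. Of the 10 genes, 5 rose, 2 fell and 3 (Camk2b, Ppp3cb and Ppp3r1) did not pass the test at an adjusted p under 0.05 (edgeR's quasi-likelihood test, Benjamini-Hochberg over all genes tested). Of all genes tested, 54.1% passed, 26.3% higher and 27.8% lower at P30. The ranges of the 2 ages did not overlap in 7 of the 10 genes, against 56.6% of all genes tested. For the 10 genes the median change was 0.28 on the log2 scale, and for all genes tested -0.02. The 7 calls are therefore to be read against a comparison in which more than 1 gene in 2 was called. Whether each library is a different mouse is not stated, so the p-values rest on differences among 7 libraries that could be technical.

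**Figure D1:**
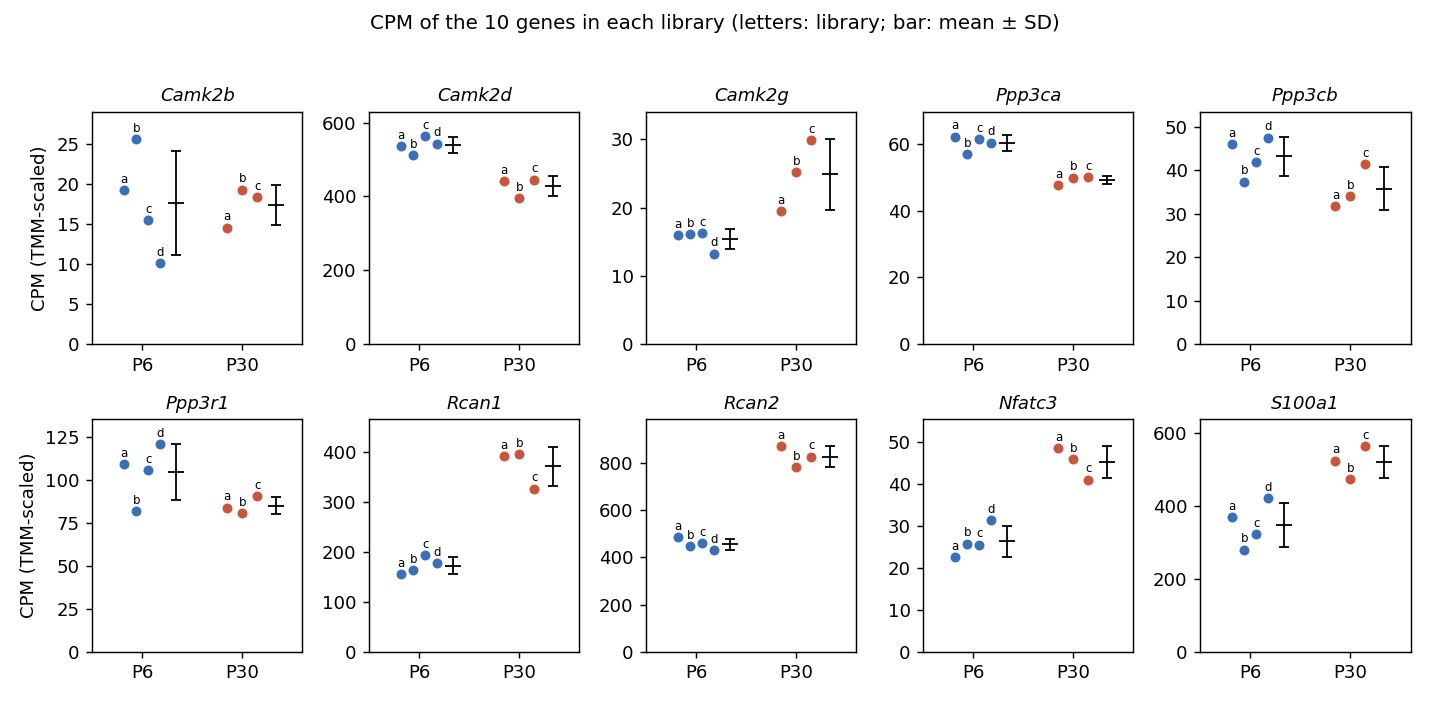
CPM (counts per library scaled to a common size with TMM factors) of the 10 genes on the vertical axes, by age on the horizontal axes; points are single libraries with their letter, and the bar beside them is the mean ± SD (n = 4 at P6, n = 3 at P30). All P30 libraries lie above all P6 libraries for Camk2g, Rcan1, Rcan2, Nfatc3 and S100a1 and below them for Camk2d and Ppp3ca, and the ages overlap for the other 3 genes.

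Levels are given as CPM, counts scaled to a common library size with TMM factors, which set the middle of the genes equal between libraries. Library totals ran from 10594932 counts in P6a to 51427646 in P6c, and 3 counts corresponded to between 0.0553 and 0.271 CPM. The lowest count among the 10 genes was 120 (Camk2b in P6d), and Camk2g had 157 to 176 counts in P6d and P6a, so counting error takes a visible part of the spread in the genes with few counts. Myh6 and Actc1, which define heart muscle cells, had 33636 ± 5693 and 25499 ± 4126 CPM at P6 (SD, n = 4) and 57300 ± 2252 and 29258 ± 3004 CPM at P30 (SD, n = 3), so the labelled cell type was present. Of 10 heart muscle markers 4 were higher and 0 lower, and their summed CPM was 94894 to 113764 at P6 and 132307 to 140538 at P30. Markers of other cells were not equal between the ages either. All 8 endothelial markers listed were higher at P30, and their summed CPM was 86.9 to 162 at P6 and 286 to 569 at P30, highest in P30b. All 7 leukocyte markers analysed were higher, with sums of 2.41 to 5.32 and 15.6 to 59.0 CPM, again highest in P30b; among them Cd74 was at 0 in P6a, Csf1r in P6c and Ptprc in P6d. Of 8 markers of smooth muscle and pericytes, 4 were higher and 1 lower, with overlapping sums. Fibroblast marker sums overlapped (158 to 391 and 137 to 313 CPM), as did those of atrial muscle (254 to 609 and 180 to 563 CPM), nerve (3.55 to 4.98 and 3.18 to 4.72 CPM) and erythroid cells (0.147 to 1.27 and 0.167 to 0.776 CPM, with Hba-a1 and Hba-a2 at 0 in every library). Of 27 immediate early and dissociation-associated genes tested, 16 were higher and 1 lower, against 26.3% and 27.8% of all genes tested. Their summed CPM was 901 to 1461 at P6 and 3301 to 5238 at P30, with P30b highest. Among the P6 libraries, P6a and P6b had 1397 and 1461 CPM, and P6c and P6d had 936 and 901 CPM. In bulk RNA a change in the make-up of the cells and a change per cell cannot be told apart, and the part of these markers in the results below was not tested.

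**Figure D2:**
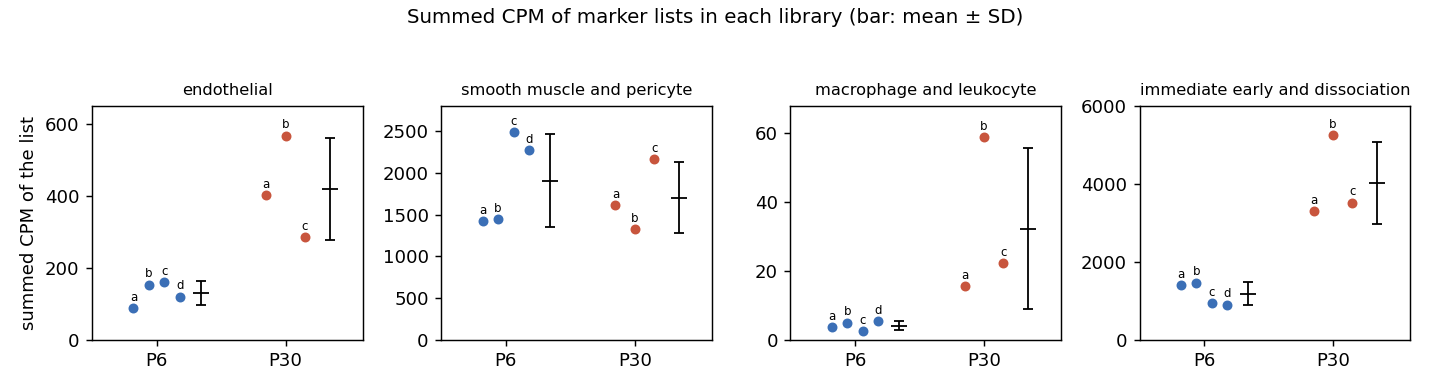
Summed CPM of 4 fixed gene lists on the vertical axes, by age; points are libraries with their letter, bars are mean ± SD. The endothelial sums (86.9 to 162 CPM at P6, 286 to 569 at P30) and the leukocyte and immediate early sums do not overlap between ages, and P30b is the highest library in these 3 lists.

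Of the genes that encode calmodulin itself, Calm2 and Calm3 fell, from 147 ± 28.0 to 89.0 ± 2.93 CPM and from 144 ± 13.8 to 86.0 ± 11.7 CPM (log2 fold changes -0.72 ± 0.14 and -0.74 ± 0.12, SE; edgeR adjusted p = 0.0023 and 5.6e-04). Both encode the same protein, and how the authors' counting treated reads shared with near-identical copies is not given, so each level is uncertain.

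Camk2d encodes the delta isoform, the main CaM kinase II of the heart. It had 536, 513, 564 and 543 CPM in P6a to P6d and 442, 396 and 446 CPM in P30a to P30c. The 3 P30 libraries were the lowest, with a gap to the lowest P6 library that was wider than the range within P6. Camk2d fell, with a log2 fold change of -0.33 ± 0.08 (SE; edgeR adjusted p = 0.0064). The call held with each library left out (edgeR adjusted p up to 0.0396).

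Camk2g encodes the gamma isoform, the other CaM kinase II commonly found in heart muscle. It had 15.9, 16.1, 16.3 and 13.3 CPM at P6 and 19.5, 25.2 and 30.0 CPM at P30. All P30 libraries were higher, and they were spread more widely (SD 5.25, n = 3) than those of P6 (SD 1.43, n = 4). Camk2g rose, with a log2 fold change of 0.69 ± 0.16 (edgeR adjusted p = 0.0050). P30c was the highest library, and without it the log2 fold change was 0.53.

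Camk2b encodes the beta isoform, which binds actin and is known chiefly from brain and skeletal muscle. It had 19.3, 25.7, 15.5 and 10.1 CPM at P6 and 14.6, 19.3 and 18.4 CPM at P30. The P6 libraries enclosed all P30 libraries. The log2 fold change was -0.03, with a 95% interval of -0.63 to 0.57 (edgeR adjusted p = 0.935), so the interval holds changes of more than 0.5 in either direction. With 1 library left out it ranged from -0.22 without P6d to 0.21 without P6b.

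Camk2a, the isoform known chiefly from neurons, was also counted. It had 42.2 ± 4.81 CPM at P6 and 29.8 ± 2.5 CPM at P30 and fell by 0.50 ± 0.12 on the log2 scale (edgeR adjusted p = 0.0060). The isoforms thus moved in different directions: the delta and alpha genes fell, the gamma gene rose and the beta gene was not called.

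Levels of different genes were compared as CPM per kilobase of merged exons (all annotated exons of a gene joined). On this scale the level of Camk2d was 24.0 ± 0.948 at P6 and 19.0 ± 1.22 at P30, that of Camk2a 5.65 ± 0.644 and 3.99 ± 0.334, that of Camk2g 2.40 ± 0.223 and 3.89 ± 0.820, and that of Camk2b 1.93 ± 0.716 and 1.91 ± 0.276. Camk2d was the highest at both ages. At P6 Camk2a came next, above Camk2g and Camk2b, whose ranges overlapped, and at P30 Camk2a and Camk2g differed by less than their spread. The order of Camk2d above the others does not hang on the length used: the merged exons of Camk2d span 22493 bases against 5524 in its longest transcript, and per kilobase of the longest transcript its level was 97.6 ± 3.86 at P6.

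The share of each isoform in the 4 CaM kinase II genes is free of library scaling. Camk2g made up 7.23%, 7.30%, 7.33% and 6.42% of CaM kinase II at P6 and 10.9%, 14.2% and 15.2% at P30. The difference of 6.36 percentage points had an exact permutation p of 0.0286 (two-sided), the smallest that the 35 splits into 4 and 3 allow, and 0.0571 after Benjamini-Hochberg adjustment over 8 shares and ratios. Camk2d made up 70.7% ± 3.81 (SD, n = 4) at P6 and 66.1% ± 3.81 (SD, n = 3) at P30, and the ranges overlapped (exact permutation p = 0.171, adjusted 0.196). For Camk2b the shares were 5.66% ± 2.0 and 6.63% ± 0.945 (exact permutation p = 0.486, the same after adjustment). The size of these shares depends on the length used. Camk2g went from 3.63% ± 0.290 to 7.11% ± 1.34 per kilobase of the longest transcript and from 2.504% to 4.97% in raw counts, without overlap between the ages on either scale. With raw counts Camk2d held 87.7% ± 2.11 at P6 and 85.6% ± 2.04 at P30.

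**Figure D3:**
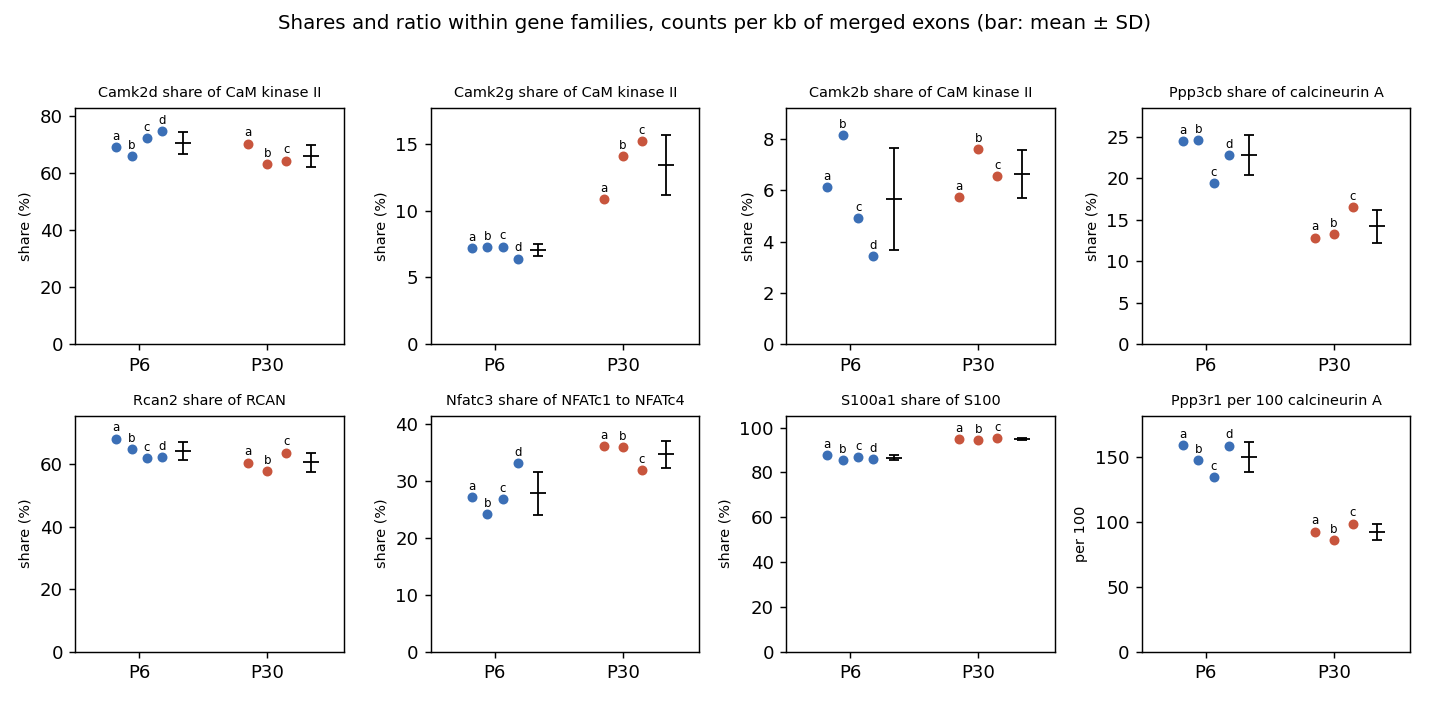
Shares of a gene in its family, in percent, and the ratio of Ppp3r1 to the calcineurin A genes, per 100, from counts per kilobase of merged exons; points are libraries with their letter, bars are mean ± SD. The ages do not overlap for Camk2g, Ppp3cb, S100a1 and the Ppp3r1 ratio, for which each exact permutation p was 0.0286 (0.0571 adjusted over 8).

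The list of other CaM kinases and their regulators held genes that moved both ways. Of 20 listed, 16 were tested, and 2 rose and 3 fell, against 26.3% and 27.8% of all genes tested. The median log2 fold change was 0.04. Mylk4, a member of the myosin light chain kinase family, had 22.2 ± 7.41 CPM at P6 and 122 ± 32.3 CPM at P30 and rose by 2.46 ± 0.25 on the log2 scale. Dapk2, a calmodulin-regulated death-associated kinase, rose from 0.802 ± 0.628 to 4.60 ± 0.164 CPM. Ppm1e, a phosphatase that acts on CaM kinases, fell from 27.2 ± 1.35 to 15.2 ± 3.99 CPM, and Camk1g from 5.71 ± 1.93 to 1.503 ± 0.438 CPM. The fifth was Camk2a. With library totals as the scaling, 5 were lower, and over all genes tested 4658 were lower, against 3490 with TMM factors.

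A further list held genes whose proteins CaM kinase II phosphorylates, or that act downstream of it in the nucleus. Of 17 tested, 7 rose and 2 fell, against 26.3% and 27.8% of all genes tested, with a median log2 fold change of 0.29. With library totals 4 rose and 3 fell. Over all genes tested, 2408 rose and 4658 fell with library totals, against 3307 and 3490 with TMM factors. Atp2a2, which encodes the pump SERCA that refills the calcium store, went from 17162 ± 883 to 30961 ± 226 CPM. Ttn, the giant sarcomere protein titin, went from 3474 ± 474 to 6735 ± 1884 CPM, a call that was lost with the trend of level on transcript length removed (edgeR adjusted p = 0.169). Srl, which encodes sarcalumenin of the same calcium store, had a log2 fold change of 0.29 ± 0.09 that was not called with library totals or without P30c (edgeR adjusted p = 0.281 and 0.0753). The genes that fell were Mef2a, a transcription factor released by class II histone deacetylases, by 0.90 ± 0.12, and Camta1, a calmodulin-binding transcription activator, by 0.43 ± 0.10 on the log2 scale.

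Ppp3ca encodes the alpha form of the calcineurin catalytic subunit. It had 62.2, 57.0, 61.6 and 60.4 CPM at P6 and 47.8, 50.0 and 50.0 CPM at P30. The 3 P30 libraries were all lower, and the spread was small at both ages. The log2 fold change was -0.29 ± 0.08 (edgeR adjusted p = 0.0150). The call was lost without P30a (edgeR adjusted p = 0.0616, log2 fold change -0.27).

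Ppp3cb encodes the beta form, known as the catalytic subunit that hypertrophic stimuli engage in the heart. It had 46.0, 37.4, 41.8 and 47.5 CPM at P6 and 31.8, 34.1 and 41.4 CPM at P30. P30c lay inside the P6 range. The log2 fold change was -0.27, with a 95% interval of -0.56 to 0.02, and did not pass the test (edgeR adjusted p = 0.101). It passed without P30c (-0.39, edgeR adjusted p = 0.0395) and without P6b (-0.34, edgeR adjusted p = 0.0414).

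Ppp3r1 encodes the regulatory B subunit, which binds calcium and without which the phosphatase does not work. It had 109, 82.0, 106 and 121 CPM at P6 and 83.8, 80.8 and 90.5 CPM at P30. P6b lay within the P30 range and the other P6 libraries above it. The log2 fold change was -0.29 ± 0.13 and did not pass (edgeR adjusted p = 0.0765), although the 95% interval of -0.58 to -0.01, which is not adjusted for the number of genes, left out 0. Without P6b it was -0.40 and passed (edgeR adjusted p = 0.0046). Wdr92 shares 462 bases of exon with Ppp3r1 on the same strand, 14.3% of the merged exons of Ppp3r1, and how reads there were assigned is not given. Wdr92 itself rose from 10.2 ± 1.11 to 26.0 ± 4.38 CPM.

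The remaining catalytic gene, Ppp3cc, known for its high expression in testis, went the other way. Its level was 31.9 ± 8.14 CPM at P6 and 58.6 ± 2.43 CPM at P30, and it rose by 0.87 ± 0.18 on the log2 scale (edgeR adjusted p = 0.0030). Per kilobase of merged exons it stood at 10.7 ± 2.73 at P6 and 19.6 ± 0.815 at P30, above Ppp3ca (6.04 ± 0.235 and 4.93 ± 0.129) and Ppp3cb (4.90 ± 0.518 and 4.06 ± 0.569). Per kilobase of the longest transcript Ppp3cc and Ppp3ca were level at P6 (12.8 and 12.7, with an SD of 3.26 for Ppp3cc), so that only the order at P30 was the same on both length scales. In raw CPM at P6, by contrast, Ppp3ca had the most counts of the 3. The share of Ppp3cb in the 3 catalytic genes was 24.5%, 24.6%, 19.4% and 22.9% at P6 and 12.8%, 13.2% and 16.5% at P30, a difference of -8.67 percentage points (exact permutation p = 0.0286, adjusted 0.0571). Per 100 of calcineurin A, Ppp3r1 went from 150 ± 11.7 to 92.2 ± 6.46 (exact permutation p = 0.0286, adjusted 0.0571); in raw counts the ratio went from 76.8 ± 5.90 to 59.3 ± 3.04. Ppp3ca, Ppp3cb and Ppp3r1 had log2 fold changes of -0.29, -0.27 and -0.29, against 0.87 for Ppp3cc.

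Rcan1 and Rcan2 bind the catalytic subunit of calcineurin and inhibit it. Rcan1 has 2 main starts: a first one far upstream, and an internal one that calcineurin and NFAT are known to switch on, so that it is used as a readout of the pathway. The count table has a single row per gene and does not separate them. RefSeq (GRCm38.p6) gave promoter windows for 8 of the 10 genes, 12 windows in all; Camk2g and Ppp3ca were not among them. The 250 bases before both Rcan1 starts and before the first Rcan2 start are shown because these genes had the largest and most constant rises. Capitals mark GGAAA, the core that NFAT factors bind, the AP-1 element TGANTCA and the cyclic AMP element TGACGTCA, each searched on both strands; none of the matches overlapped another.
Rcan1 internal start, chr16:92400079-92400328, minus strand: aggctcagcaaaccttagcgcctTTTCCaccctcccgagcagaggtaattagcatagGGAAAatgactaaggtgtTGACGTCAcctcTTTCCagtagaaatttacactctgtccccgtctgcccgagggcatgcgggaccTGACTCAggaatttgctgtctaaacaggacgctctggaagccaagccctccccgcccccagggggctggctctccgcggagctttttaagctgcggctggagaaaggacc
Rcan1 upstream start, chr16:92466170-92466419, minus strand: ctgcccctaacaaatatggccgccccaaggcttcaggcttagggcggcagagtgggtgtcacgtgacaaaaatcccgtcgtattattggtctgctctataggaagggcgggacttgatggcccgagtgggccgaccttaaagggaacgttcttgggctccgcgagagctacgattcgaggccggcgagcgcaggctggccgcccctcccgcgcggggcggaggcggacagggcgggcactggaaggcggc
Rcan2 first start, chr17:43801102-43801351, plus strand: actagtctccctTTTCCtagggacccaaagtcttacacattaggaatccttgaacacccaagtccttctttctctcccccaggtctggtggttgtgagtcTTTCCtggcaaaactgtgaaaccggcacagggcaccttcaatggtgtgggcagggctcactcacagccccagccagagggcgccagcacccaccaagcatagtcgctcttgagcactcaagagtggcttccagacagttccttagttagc
The window of the internal Rcan1 start held 3 matches to GGAAA, 227, 193 and 163 bases before the start at their far ends, 1 to TGACGTCA at 175 and 1 to TGANTCA at 110. The window of the upstream Rcan1 start held none of these letters, and that of Rcan2 held GGAAA at 238 and 150 bases. Such matches were not limited to genes that rose: the window of Ppp3cb, which was not called, also held 3 GGAAA. That of Camk2d, which fell, held 1. Among genes that rose, the windows of S100a1 and the first Nfatc3 start held 2 and 1 GGAAA, and a later Rcan2 start had 1 TGANTCA. The windows of Camk2b and Ppp3r1, which were not called, held no match. Of genes that rose, the windows of the later Nfatc3 start and of another later Rcan2 start also held none. Of 32851 windows of the same length, 55.6% held at least 1 GGAAA and 6.39% at least 3, 6.75% held TGANTCA and 1.55% TGACGTCA. A match describes the sequence and does not show that a factor was bound.

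Rcan1 had 155, 163, 193 and 178 CPM in P6a to P6d and 391, 396 and 326 CPM in P30a to P30c. The lowest P30 library was far above the highest P6 library. Rcan1 rose, with a log2 fold change of 1.11 ± 0.11 (SE; edgeR adjusted p = 3.0e-05), and it stayed between 1.06 and 1.19 with each library left out. In P30a, P30b and P30c the endothelial marker sums were 403, 569 and 286 CPM. The leukocyte sums there were 15.6, 59.0 and 22.2 CPM, and the immediate early sums 3301, 5238 and 3517 CPM. Without P30b the log2 fold change of Rcan1 was 1.06. Genes of the immediate early list rose along with it, among them Cyr61, a secreted matrix protein (51.8 ± 16.7 to 714 ± 143 CPM), Dusp1, a MAP kinase phosphatase (92.7 ± 18.7 to 521 ± 69.5 CPM), and Jun, a subunit of AP-1 (141 ± 29.0 to 442 ± 128 CPM), whereas Jund, another AP-1 subunit, fell by 0.69 ± 0.12 on the log2 scale. Whether the rise of these genes, or of the endothelial and leukocyte sums, shares a source with that of Rcan1 was not tested.

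Rcan2 had 485, 447, 460 and 432 CPM at P6 and 874, 782 and 828 CPM at P30. It had the smallest relative spread of the 5 genes that rose, and the ages lay far apart. Rcan2 rose, with a log2 fold change of 0.86 ± 0.08 (edgeR adjusted p = 2.6e-05), between 0.82 and 0.90 with each library left out. Per kilobase of merged exons Rcan2 was above Rcan1 at both ages, with 104 ± 5.16 against 55.8 ± 5.43 at P6 and 189 ± 10.5 against 120 ± 12.6 at P30. The share of Rcan2 in the 3 RCAN genes was 64.3% ± 2.83 at P6 and 60.6% ± 3.01 at P30 and overlapped between the ages (exact permutation p = 0.171, adjusted 0.196). Rcan3, the least counted of the family, went from 11.5 ± 2.39 to 17.1 ± 4.59 CPM. Its call (edgeR adjusted p = 0.0473) was lost with library totals (0.176), with the length trend removed (0.0580) and without any of P6a, P6c, P6d, P30a and P30b (edgeR adjusted p up to 0.226).

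The wider set of calcineurin subunits, inhibitors and anchors moved both ways. Of 21 listed, 16 were tested, and 6 rose and 5 fell, against 26.3% and 27.8% of all genes tested. The median log2 fold change was 0.46. Beside Ppp3cc and Rcan3, the genes that rose were Myoz2, which encodes calsarcin-1, an inhibitor of calcineurin at the Z-disc (482 ± 40.0 to 826 ± 43.0 CPM, log2 fold change 0.78 ± 0.09), Lmcd1, a LIM protein linked to calcineurin, Akap6, an anchor at the nuclear envelope, and Fbxo32, the ubiquitin ligase atrogin-1, for which calcineurin is a known target. The genes that fell were Ppia and Fkbp1a, the binding proteins of the calcineurin inhibitors cyclosporin and FK506, with Fkbp1b, Cib1 and Myoz1. Ppia went from 294 ± 32.2 to 47.7 ± 6.36 CPM, though it has many processed copies and its count is uncertain, and Fkbp1a from 296 ± 20.2 to 204 ± 10.2 CPM. The number that rose was less settled than the number that fell. It was 3 with library totals, 3 with the length trend removed and 3 without P6d or without P30a, between 4 and 8 with any of the other 5 libraries left out, whereas 5 fell in each of these. Akap6 (log2 fold change 0.32 ± 0.10) had the opposite sign with the length trend removed (-0.03) and was not called with library totals or with any 1 of the libraries P6a, P6c, P6d, P30a or P30c left out; its highest edgeR adjusted p was 0.812, with the length step. Fbxo32 (0.95 ± 0.34 on the log2 scale, edgeR adjusted p = 0.0405) was not called by DESeq2 (adjusted p = 0.0555), with library totals, with the length trend removed or without any of P6c, P6d, P30a and P30c.

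Nfatc3 encodes an NFAT factor that calcineurin dephosphorylates in heart muscle. It had 22.5, 25.8, 25.6 and 31.4 CPM at P6 and 48.7, 46.0 and 41.1 CPM at P30. All P30 libraries were above all P6 libraries, with a gap wider than the range at either age. Nfatc3 rose, with a log2 fold change of 0.78 ± 0.13 (edgeR adjusted p = 6.8e-04) and lay between 0.72 and 0.86 with each library left out. Esrp2 on the opposite strand shares 219 bases of exon with it, 1.87% of its merged exons.

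The other NFAT factors were not called. Nfatc1 had 18.8 ± 3.48 CPM at P6 and 21.9 ± 2.84 CPM at P30, Nfatc2 had 34.02 ± 8.84 and 44.6 ± 7.10 CPM, and Nfat5, which calcineurin does not regulate, had 21.8 ± 3.22 and 20.8 ± 3.10 CPM. The ages overlapped for all 3. Nfatc2 passed without P6b (log2 fold change 0.57, edgeR adjusted p = 0.0132). Nfatc4 reached at most 1.398 CPM in any library. The share of Nfatc3 in NFATc1 to NFATc4 was 27.9% ± 3.77 at P6 and 34.7% ± 2.43 at P30, and the ranges overlapped (exact permutation p = 0.0857, adjusted 0.137), so a rise of Nfatc3 relative to the rest of its family was not shown.

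The other NFAT factors were listed together with kinases and scaffolds that set where NFAT resides. Of 16 genes tested in this list, 1 rose and 5 fell, against 26.3% higher and 27.8% lower over all genes tested, with a median log2 fold change of -0.08. Csnk1a1 and Csnk1e, casein kinases that phosphorylate NFAT, fell, the former from 350 ± 28.1 to 194 ± 9.82 CPM. Dyrk2, a kinase of the DYRK family, fell from 98.1 ± 5.17 to 30.1 ± 1.26 CPM (log2 fold change -1.71 ± 0.09). The kinases Gsk3a, Gsk3b, Dyrk1a, Dyrk1b and Csnk1d of the same list were not called (edgeR adjusted p from 0.172 to 0.639). The scaffolds Homer1 and Homer3 fell, Homer1 from 91.0 ± 8.57 to 62.8 ± 11.3 CPM, whereas Homer2 rose from 99.0 ± 5.11 to 180 ± 21.1 CPM. Homer2 and Homer3 are known to compete with calcineurin for NFAT. The number that rose was 2 without P6b or without P6c.

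S100a1 encodes a small calcium-binding protein of heart muscle that binds the ryanodine receptor and the calcium pump. It had 368, 280, 323 and 421 CPM at P6 and 523, 474 and 562 CPM at P30. All P30 libraries were higher, and P6d stood closest to them. The log2 fold change was 0.58 ± 0.13 (edgeR adjusted p = 0.0049). S100a1 is short, with 694 bases of merged exons. With the trend of level on transcript length removed from each library its log2 fold change was 1.11 (edgeR adjusted p = 1.8e-06), so that the rise was called on both scales but its size was not settled.

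S100a1 dominated its family. On the scale of CPM per kilobase of merged exons it had 501 ± 87.3 at P6 and 749 ± 64.0 at P30, the highest of the 10 genes, and it made up 87.8%, 85.5%, 86.9% and 86.0% of the S100 genes at P6 and 94.9%, 94.3% and 95.3% at P30. The difference of 8.28 percentage points had an exact permutation p of 0.0286 (adjusted 0.0571). Of 16 other S100 genes listed, 6 were tested, and 1 rose and 2 fell, against 26.3% and 27.8% of all genes tested. S100a13 fell from 30.1 ± 6.95 to 10.5 ± 1.09 CPM, and S100a11 from 8.80 ± 3.24 to 1.31 ± 0.522 CPM. S100a16 went from 19.8 ± 3.85 to 28.6 ± 2.05 CPM, a call that was lost with library totals and without P30b or P30c (edgeR adjusted p of 0.106, 0.0614 and 0.0541).

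**Figure D4:**
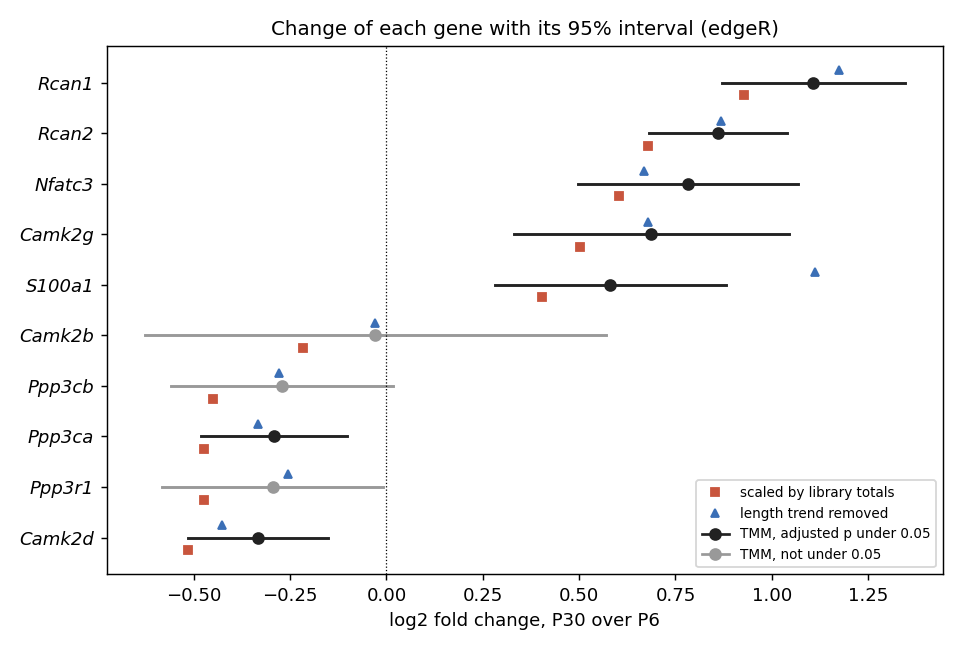
Log2 fold change of each gene, P30 over P6, on the horizontal axis, with its 95% interval (circles and lines; dark where the edgeR adjusted p was under 0.05). Squares use library totals and triangles remove the trend on transcript length: library totals move every gene down, by about as much as the median over all genes moved, from -0.02 to -0.20, and the length step moves S100a1 from 0.58 to 1.11.

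The scaling mattered for the small falls and not for the direction of the rises. When libraries were scaled by their totals instead of TMM factors, the median change over all genes tested moved from -0.02 to -0.20, and 2408 genes were higher and 4658 lower, against 3307 and 3490 with TMM. The same 5 of the 10 genes rose on either scaling. The number that fell was 2 with TMM factors and 4 with library totals, where Camk2d was at -0.51, Ppp3ca at -0.47, Ppp3cb at -0.45 and Ppp3r1 at -0.47; relative to the median of all genes these were close to their values with TMM. In the authors' deposited table of a DESeq2 comparison, the adjusted p was under 0.05 for the same 7 genes, and the sign was the same in 10 of 10. In the authors' deposited table the log2 fold change was 1.124 for Rcan1, 0.88 for Rcan2, 0.80 for Nfatc3, 0.70 for Camk2g, 0.60 for S100a1, -0.32 for Camk2d and -0.28 for Ppp3ca.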

How the data were processed

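Cardiomyocyte RNA was sequenced with SMART-Seq v4 and Nextera XT, per the labels' protocols. The authors deposited a table of raw read counts. The submitters' processing notes name CASAVA 1.8, STAR 2.5.3a, Subread 1.5.2 with featureCounts, and mm10, but the sources used here give no strand setting, annotation or rule for multi-mapping reads. A second deposited table holds a DESeq2 comparison, per the file headers: a signal averaged over libraries (baseMean), log2 fold changes with errors, a Wald score, and p-values. Column letters match no title number, so each column was placed by age alone.

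The test was edgeR's quasi-likelihood F (version 4.0.16, R 4.3.3) on age with no covariate, after filterByExpr and TMM scaling, with Benjamini-Hochberg adjustment over 12561 genes. The SE is the absolute log2 fold change divided by the square root of F. DESeq2 1.42.0, other scalings, no filter, a length correction (lowess, span 0.3) and each library left out were alternatives. The procedure was also run on simulated counts in which few genes changed, in both directions. That run cannot speak to the scaling where a large part of the genes changed. Shares used counts per kilobase and an exact permutation test over 35 splits. Lengths and overlaps came from GENCODE release M21 (GRCm38), which matched 22874 of 23337 genes.

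The 10 genes, the 7 pathway lists and the 8 marker lists were chosen with earlier results of these data known. Genes named beside the 10 are the up to 3 most counted called in each direction of a list, the members of each share, and the 2 most counted markers of each list (Myh6 and Actc1 are those of heart muscle). Lmcd1, Fkbp1b, Myoz1, Csnk1e, Homer3, Nfat5, Wdr92, Esrp2, Csf1r, Ptprc, Hba-a1 and Hba-a2 were named after their values were seen. So were Gsk3a, Gsk3b, Dyrk1a, Dyrk1b and Csnk1d. A result on a withheld item is not reported here.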

Additional observations from a re-analysis of the deposited data

Results flagged for a closer look

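Camk2g in P6d stood apart from the other P6 libraries. It had 13.3 CPM there and 15.9 to 16.3 CPM in the other 3, a gap of 0.888 of the whole P6 range. The share of Camk2g in CaM kinase II was 6.42% in P6d and 7.23% to 7.33% in the others, a gap of 0.895 of the range. Both come from the same counts. They were found among 29 groups of P6 libraries examined, of which chance flags about 1 in 20. With P6d left out the log2 fold change of Camk2g was 0.62.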

How the results depend on the processing

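No paired analysis was possible because the count columns carry letters that the labels tie to no replicate number, so the planned replicate block was not run. Rcan1, Rcan2, Nfatc3, Camk2g and S100a1 were higher, and passed the test, under all 12 alternatives; Camk2d was lower and passed in all 12. The direction held in 9 of the 10 genes: Camk2b, which was never called, ranged from -0.22 to 0.21 with 1 library left out (0.0060 without P6a, 0.090 without P30a). With library totals, Ppp3cb and Ppp3r1 passed (-0.45 and -0.47), and 4 of the 10 genes fell; with 1 library left out 1 to 4 fell, Ppp3ca ranged from -0.32 to -0.27, Ppp3cb from -0.39 to -0.19 (-0.34 without P6b) and Ppp3r1 from -0.40 to -0.23. The number of calcineurin-related genes that rose was 3 with library totals, 3 with the length trend removed and 3 to 8 with 1 library left out. With library totals 5 other CaM kinase genes fell, 4 CaM kinase II targets rose and 0 other S100 genes rose, the last because S100a16 missed the threshold. With 1 library left out, 0 to 1 calmodulin genes, 1 to 2 NFAT-related genes and 0 to 1 other S100 genes rose. Among genes named beside the 10, Akap6 was at -0.025 with the length trend removed; S100a10 was at 0.35 there and between -0.36 and 0.067 with 1 library left out, and S100a6 at 0.29 and between -0.55 and 0.23 (0.030 without P6b, 0.075 without P6d), neither ever called. The cause of these shifts was not tested. Nfatc4 was too low to be tested without P6a or without P6b. With 4 libraries against 3, no share could reach an exact p under 0.0286, and the 4 shares or ratios at that value had 0.0571 after adjustment over 8, under raw counts and the other length scale too; with medians in place of means these 4 had 0.152 to 0.183.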

Other observations

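For each of the 10 genes, the gene with a mean of at least 10 CPM whose log2 CPM followed it most closely over the 7 libraries was noted, among 8222 genes. For Rcan2 it was D9Ertd402e (Pearson r = 0.999), for Rcan1 Tsr1 (0.998), for Ppp3ca 1110059G10Rik (0.996), for S100a1 Mrpl2 (0.994), for Camk2d Tmem41b (0.993), for Nfatc3 Uhrf1bp1 (0.993), for Ppp3r1 Dcun1d5 (0.991), for Camk2b Prkca, a calcium-dependent protein kinase (0.990), for Camk2g Ppp1r37 (0.984) and for Ppp3cb Laptm4a (0.982). The libraries fall into 2 ages, which set most of these values for the genes that changed: 794 genes had r above 0.95 with Rcan2 and 580 with Rcan1, against 9 with Camk2b, whose level did not follow age. The values are a description over 7 libraries and say nothing of shared control.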
